A study of Mus musculus with 30 samples.

Results

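The genes described here are 40 genes that a cell needs to copy its DNA and to divide, out of 49315 genes counted in the study. They form a list of 24 genes of mitosis and 16 genes of S phase, the stage in which DNA is replicated, given by gene name with no threshold on a measured value but with earlier results of these data known. RNA was sequenced in 30 cultures of testes taken from C57BL/6 mouse fetuses on gestational day 14 and freed of the mesonephros, the embryonic kidney beside the gonad. Each culture stood on a membrane insert for 24 h, and the medium of every group, controls included, held DMSO at a dilution of 1 in 4000. The 4 groups were vehicle (DMSO alone, n = 15), mono-(2-ethylhexyl) phthalate (MEHP, 100 µM, n = 6), all-trans retinoic acid (ATRA, 1 µM, n = 5) and both compounds at those doses (MEHP + ATRA, n = 4). MEHP is the active breakdown product of a common plasticiser, and ATRA is the signalling form of vitamin A. Sample titles carry a second number, from 416 to 465 (called the lower range here) or from 525 to 599 (the upper range). MEHP was measured only in the upper range and ATRA and MEHP + ATRA only in the lower, while vehicle had 9 lower and 6 upper libraries, so each treatment was set against vehicle of its own range. No label states that each library is a separate animal or litter, and p-values therefore measure only the spread between these libraries.

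Cells enter S phase when E2F transcription factors are freed from the retinoblastoma family of proteins and switch on the replication genes. The genes of mitosis peak later, through the DREAM and MuvB complexes with B-MYB and FOXM1, which act at a promoter element called the cell cycle genes homology region (CHR), usually together with CCAAT boxes bound by NF-Y. In the fetal mouse testis at this stage Sertoli cells, which form the cords, and interstitial progenitors divide, while male germ cells are leaving the cycle for a mitotic arrest.

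All 40 genes passed the filter on low counts and were among the 19323 genes tested. Libraries held 17551454 to 29306917 counts. Markers of germ cells (Ddx4, 123 CPM on average in lower-range vehicle), Sertoli cells (Amh, 1020 CPM) and fetal Leydig cells (Cyp11a1, 665 CPM) were present, and the mesonephric marker Pax2 averaged 0.807 CPM there. CPM are counts scaled to library size after TMM, a method that sets libraries to a common level. Per kilobase of exon length, the mean level in lower-range vehicle ran from 74.7 CPM per kb for Cdc20, 63.3 for Pcna and 57.4 for Ccnb2 down to 5.56 for Ccne1, 5.23 for Cdc6 and 3.69 for Ccne2. Exons of 10 of the 40 genes overlap a gene on the other strand, and since the strand setting of the counting is not given, reads of the pairs cannot be told apart. These are Ccna2 with Exosc9, Plk1 with Gm44985, Cdc20 with Elovl1, Kif20a with Cdc23, Nusap1 with Oip5, Ube2c with Tnnc2, Prc1 with Rccd1, Mcm7 with Cops6 and Ap4m1, Gins2 with Gse1, and Ccne2 with Ints8. In whole tissue, fewer cells in cycle and less RNA per cycling cell cannot be told apart.

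Promoter sequences are shown for 5 genes chosen because they carry the elements named above, which not every gene called below does. They come from RefSeq on build GRCm38.p6 and run 5′ to 3′ on the gene's strand, from 250 bases before to 50 after the annotated start. For Mki67 (chr7:135716330-135716629, minus strand), Prc1 (chr7:80294201-80294500, plus strand) and Ccnb2 (chr9:70421505-70421804, minus strand), capitals mark CHR elements (TTTGAA) and CCAAT boxes, on either strand.
Mki67: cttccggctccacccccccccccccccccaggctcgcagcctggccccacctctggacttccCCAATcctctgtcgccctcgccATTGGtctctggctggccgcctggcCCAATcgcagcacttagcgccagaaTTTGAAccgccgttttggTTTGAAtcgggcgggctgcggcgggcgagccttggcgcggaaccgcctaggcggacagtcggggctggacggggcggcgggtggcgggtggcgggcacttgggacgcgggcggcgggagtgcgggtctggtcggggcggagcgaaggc
Prc1: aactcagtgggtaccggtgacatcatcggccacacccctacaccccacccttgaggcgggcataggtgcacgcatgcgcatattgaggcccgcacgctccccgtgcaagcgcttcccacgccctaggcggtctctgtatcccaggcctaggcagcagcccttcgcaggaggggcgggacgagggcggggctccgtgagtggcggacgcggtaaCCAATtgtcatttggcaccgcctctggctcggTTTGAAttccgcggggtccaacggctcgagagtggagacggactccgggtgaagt
Ccnb2: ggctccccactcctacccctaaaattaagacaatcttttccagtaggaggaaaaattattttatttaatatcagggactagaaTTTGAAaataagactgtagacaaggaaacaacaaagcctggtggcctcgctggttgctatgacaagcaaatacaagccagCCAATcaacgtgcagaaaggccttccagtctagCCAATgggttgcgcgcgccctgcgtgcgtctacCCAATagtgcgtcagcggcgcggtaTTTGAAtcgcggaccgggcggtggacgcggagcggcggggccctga
For the replication helicase genes Mcm3 (chr1:20820263-20820562, minus strand) and Mcm6 (chr1:128359656-128359955, minus strand), capitals mark E2F elements alone.
Mcm3: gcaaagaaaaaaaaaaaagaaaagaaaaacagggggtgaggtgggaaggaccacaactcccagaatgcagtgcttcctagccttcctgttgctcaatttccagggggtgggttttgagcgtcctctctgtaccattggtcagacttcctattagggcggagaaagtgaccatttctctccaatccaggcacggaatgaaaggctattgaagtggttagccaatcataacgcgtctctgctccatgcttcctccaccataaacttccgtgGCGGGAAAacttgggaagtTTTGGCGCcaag
Mcm6: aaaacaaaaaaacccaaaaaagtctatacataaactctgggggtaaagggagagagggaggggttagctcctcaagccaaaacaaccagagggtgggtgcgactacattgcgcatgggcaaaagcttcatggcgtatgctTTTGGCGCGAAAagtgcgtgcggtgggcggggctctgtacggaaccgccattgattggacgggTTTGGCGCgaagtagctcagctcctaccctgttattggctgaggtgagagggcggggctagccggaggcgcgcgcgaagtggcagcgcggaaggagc
The E2F search took TTTGGCGC, TTTCGCGC and TTTCCCGC on both strands, and matches could overlap, as in Mcm6. Of the 40 genes, 33 (20 mitotic and 13 S phase) matched an entry, with 35 windows of 300 bases. A CHR stood in 76.2% of the 21 mitotic windows, in 7.14% of the 14 S phase windows and in 17.9% of all 32851 promoter windows. A CHR together with a CCAAT box stood in 76.2%, 7.14% and 6.95% of them. An E2F element stood in 4.76% of mitotic windows, 42.9% of S phase windows and 1.84% of all windows. Among genes called below, the Mcm2 window held a CHR and no E2F element. The windows of Tyms and Rrm2 held no E2F element, and those of Ccnb1, Birc5, Cenpe and Nusap1 held no CHR. Aurkb, Tpx2, Ccna2 and Gins2, also called below, matched no entry. These are matches of letters, which do not show that a factor binds there.

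With MEHP, no gene of either set passed the test in the main fit. By edgeR's quasi-likelihood F test with Benjamini-Hochberg adjustment over all 19323 genes, called at an adjusted p under 0.05, 0 of the 40 were called, against 4.72% of all genes tested (1.84% lower, 2.88% higher). The log2 fold changes against upper-range vehicle ran from −0.18 to 0.08 with a median of −0.07, beside −0.01 over all genes, and 36 of the 40 were below 0, as were 54.4% of all genes. The 95% intervals of the 40 genes all lay between −0.35 and 0.19, which is −21.5% to 14.1%. Unadjusted p was under 0.05 for 4 genes, all of S phase and lower, beside 14.8% of all genes, and DESeq2 and limma-voom also called 0. The lowest of them was Cdc6, which loads the replication helicase at origins. Cdc6 lay at 24.0, 28.0 and 31.8 CPM (lowest, median and highest) in upper-range vehicle and at 20.6, 25.7 and 28.1 CPM with MEHP. Its groups overlapped, with a log2 fold change of −0.18 ± 0.07 (SE) and an adjusted p of 0.20. The thymidylate synthase gene Tyms (−0.16 ± 0.07, adjusted p = 0.238), E2f1 (−0.15 ± 0.06, adjusted p = 0.212) and the helicase subunit gene Mcm5 (−0.11 ± 0.05, adjusted p = 0.269) were the others. With all 15 vehicle libraries as control, without the range term, Cenpf (−0.20, adjusted p = 0.0212) and E2f1 (−0.15, adjusted p = 0.0419) passed. A replicate block on the first title number within each range called Tyms alone. Between the ranges of vehicle itself, 0 of the 40 were called (0.373% of all genes), 0 had an unadjusted p under 0.05, and log2 differences ran from −0.12 to 0.12. DESeq2 and limma-voom called 0 there as well.

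With ATRA, 17 of the 40 genes fell and none rose, and 14 of the 17 were genes of mitosis. Lower calls made up 42.5% of the 40 genes, against 9.03% of all genes tested (9.06% higher, 18.1% in either direction). Among the 24 mitotic genes 14 fell (58.3%) and the median log2 fold change was −0.18. Among the 16 S phase genes 3 fell (18.8%) and the median was −0.05, beside 0 over all genes. The difference between the sets was not tested. The falls were of modest size, from −0.18 to −0.36 on the log2 scale, and the gene that fell most, Aurkb, fell by 22.3%.

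**Figure D1:**
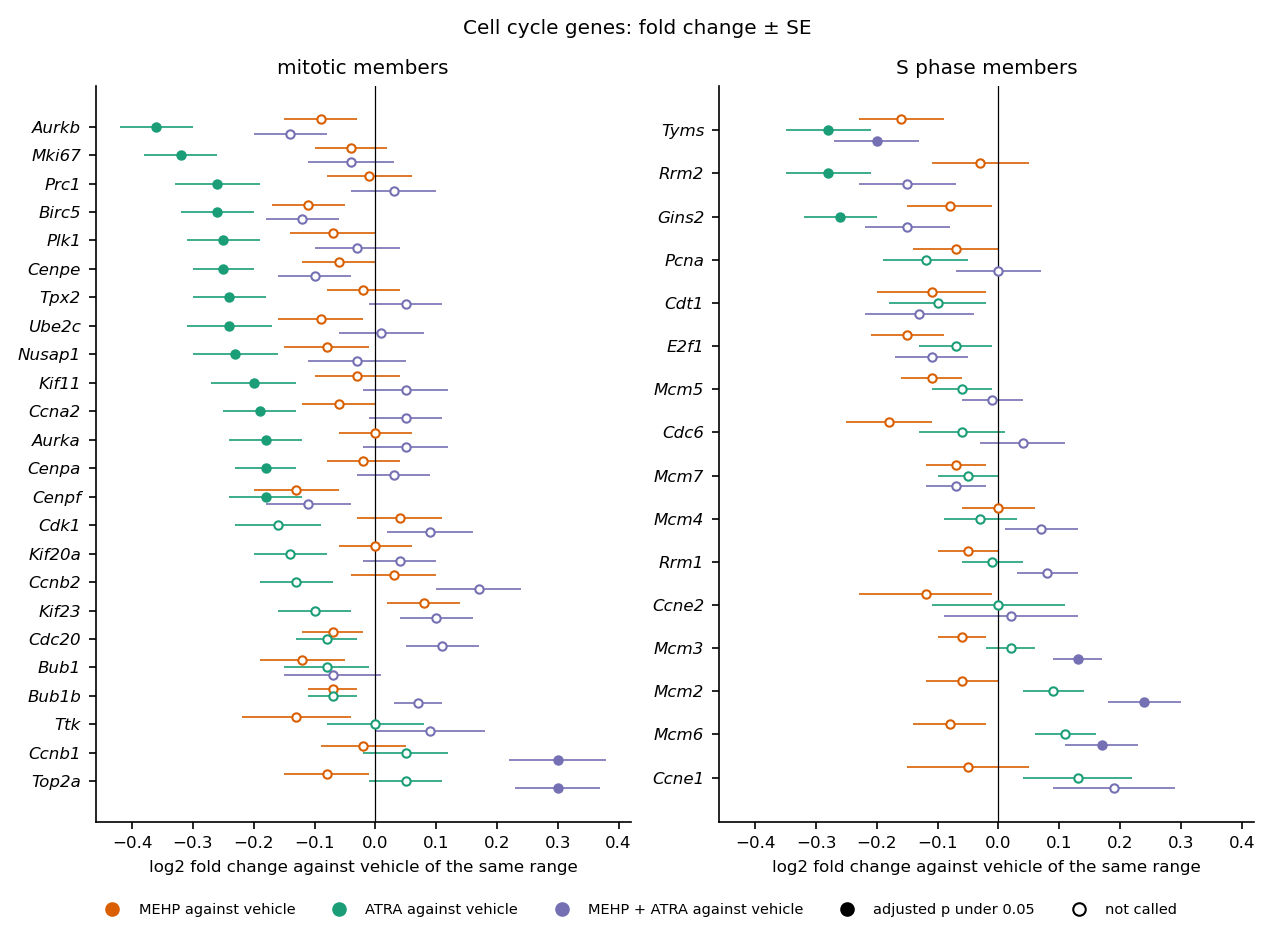
Log2 fold change (± SE) of each gene with MEHP, ATRA or MEHP + ATRA against vehicle of the same range, for the 24 mitotic genes (left) and the 16 S phase genes (right), ordered by the ATRA change; filled points have an adjusted p under 0.05. Filled ATRA points, all below 0, number 14 on the left and 3 on the right, no MEHP point is filled, and 5 of the 6 filled MEHP + ATRA points lie above 0.

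Mki67 encodes Ki-67, a protein that coats mitotic chromosomes and is the usual mark of dividing cells. It lay at 371, 445 and 478 CPM (lowest, median and highest) in lower-range vehicle, at 326, 349, 346, 375 and 369 CPM in ATRA replicates 1 to 5 and at 462, 394, 439 and 426 CPM in MEHP + ATRA replicates 1 to 4. All but 1 of the 5 ATRA libraries were below every vehicle library, and replicate 4 stood just above the lowest of them. The log2 fold change with ATRA was −0.32 ± 0.06 (adjusted p = 0.000256). Top2a, for the topoisomerase that untangles sister DNA strands, stood otherwise, at 348, 372 and 402 CPM in vehicle and at 347, 408, 376 and 402 CPM in ATRA replicates 1 to 4, with replicate 5 a little higher. Those groups overlapped, and its change was 0.05 ± 0.06 (adjusted p = 0.695).

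Among the mitotic kinases, 3 of 7 fell. Aurkb, the kinase of the chromosomal passenger complex that corrects faulty attachments to the spindle, lay at 54.4, 63.7 and 71.2 CPM in vehicle and at 47.8, 45.9, 50.7, 48.9 and 52.1 CPM with ATRA. All 5 ATRA libraries were below all 9 vehicle libraries (−0.36 ± 0.06, adjusted p = 2e-05). Plk1, a kinase of mitotic entry and spindle assembly, lay at 71.5, 78.8 and 88.6 CPM in vehicle and at 57.4, 63.0, 71.6, 68.8 and 70.3 CPM with ATRA, where only replicate 3 reached the lowest vehicle value (−0.25 ± 0.06, adjusted p = 0.00384). Aurka, the spindle pole kinase, changed by −0.18 ± 0.06 (adjusted p = 0.0397). Its call was lost without any one of ATRA replicates 1, 2, 3 and 5 or vehicle replicates 1, 2, 5, 8 and 12 (adjusted p of Aurka up to 0.162). Cdk1, the kinase that drives mitosis, had −0.16 ± 0.07 (adjusted p = 0.122). The checkpoint kinase genes Bub1 (−0.08 ± 0.07), Bub1b (−0.07 ± 0.04) and Ttk (0.00 ± 0.08) did not pass either.

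All 4 genes grouped here under the kinetochore and centromere, where chromosomes meet the spindle, fell. The checkpoint kinase genes Bub1, Bub1b and Ttk, which did not pass, were counted with the kinases instead. Birc5 (survivin, the partner of Aurora B) lay at 55.0, 61.3 and 65.1 CPM in vehicle and at 47.7, 50.3, 52.5, 54.0 and 51.6 CPM with ATRA, with no overlap (−0.26 ± 0.06, adjusted p = 0.00146). Cenpe, a motor protein of the kinetochore, lay at 139, 145 and 164 CPM in vehicle and at 122, 133, 116, 134 and 122 CPM with ATRA, again with no overlap (−0.25 ± 0.05, adjusted p = 0.00112). Cenpa, the histone variant that marks the centromere, fell by 0.18 ± 0.05 on the log2 scale (adjusted p = 0.0188), a call lost for Cenpa without ATRA replicate 1 (adjusted p = 0.0558). Cenpf, a large kinetochore protein, had −0.18 ± 0.06 (adjusted p = 0.0454). The Cenpf call was lost without any one of 14 libraries, namely ATRA replicates 1, 3, 4 and 5, vehicle replicates 1, 2, 5, 7, 8, 9 and 15 and MEHP replicates 1, 4 and 6 (adjusted p up to 0.126).

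Of 6 spindle and midzone genes, 4 fell. Tpx2, which nucleates spindle microtubules and activates Aurora A, lay at 130, 146 and 163 CPM in vehicle and at 118, 127, 124, 127 and 124 CPM with ATRA (−0.24 ± 0.06, adjusted p = 0.00371). Prc1, which bundles the microtubules of the midzone before the cell splits, lay at 97.0, 106 and 121 CPM in vehicle and at 83.4, 87.2, 86.2, 95.5 and 95.4 CPM with ATRA (−0.26 ± 0.07, adjusted p = 0.00356). Neither gene's groups overlapped. Nusap1, a spindle microtubule binder, had −0.23 ± 0.07 (adjusted p = 0.0184), lost for Nusap1 without ATRA replicate 1 (adjusted p = 0.0554) or 5 (adjusted p = 0.0512). The motor gene Kif11, which pushes the spindle poles apart, had −0.20 ± 0.07 (adjusted p = 0.037). The Kif11 call was lost on leaving out any one of ATRA replicates 1 to 4 or vehicle replicates 2, 9, 12 and 13 (adjusted p up to 0.132). The midzone motor genes Kif20a (−0.14 ± 0.06, adjusted p = 0.113) and Kif23 (−0.10 ± 0.06, adjusted p = 0.243) did not pass.

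The cyclins of mitosis and the genes that end it were split. Of 3 cyclin genes, Ccna2 fell (−0.19 ± 0.06, adjusted p = 0.0228), although not without ATRA replicate 1 (adjusted p of Ccna2 = 0.0787) or 2 (adjusted p = 0.0577). Ccnb2 had −0.13 ± 0.06 (adjusted p = 0.198) and Ccnb1 0.05 ± 0.07 (adjusted p = 0.759). Ube2c is the conjugating enzyme of the anaphase-promoting complex (APC/C), which destroys the mitotic cyclins. It lay at 78.7, 84.9 and 104 CPM in vehicle and at 64.0, 75.9, 81.8, 77.1 and 68.3 CPM with ATRA, with only replicate 3 inside the vehicle range (−0.24 ± 0.07, adjusted p = 0.0106). Cdc20, an activator of the same complex, had −0.08 ± 0.05 (adjusted p = 0.341).

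In S phase the 3 genes that fell with ATRA serve nucleotide supply or the helicase. Tyms, which makes thymidylate, lay at 42.7, 47.6 and 50.7 CPM in vehicle and at 38.0, 36.6, 41.2, 38.7 and 37.9 CPM with ATRA, all below the vehicle libraries (−0.28 ± 0.07, adjusted p = 0.00296). Rrm2, the regulated subunit of ribonucleotide reductase, lay at 56.1, 63.6 and 70.7 CPM in vehicle and at 46.6, 49.9, 58.8, 51.6 and 53.7 CPM with ATRA (−0.28 ± 0.07, adjusted p = 0.00734). Gins2, a helicase cofactor, lay at 28.9, 31.0 and 35.0 CPM in vehicle and at 24.6, 24.6, 24.6, 26.8 and 29.8 CPM with ATRA (−0.26 ± 0.06, adjusted p = 0.00394). For Rrm2 replicate 3 and for Gins2 replicate 5 lay within the vehicle range. The other subunit of the reductase, Rrm1, had −0.01 ± 0.05, and the sliding clamp gene Pcna had −0.12 ± 0.07. The 6 genes of the Mcm2 to Mcm7 helicase ring ran from −0.06 ± 0.05 (Mcm5) to 0.11 ± 0.05 (Mcm6, adjusted p = 0.181), and none passed. With limma-voom Mcm6 was called higher (0.13, adjusted p = 0.0195). The licensing genes Cdc6 (−0.06 ± 0.07) and Cdt1 (−0.10 ± 0.08), and Ccne1 (0.13 ± 0.09), Ccne2 (0.00 ± 0.11) and E2f1 (−0.07 ± 0.06), which drive entry into S phase, did not pass.

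Of the 17 calls with ATRA, 11 held in all 30 fits that left out 1 library and under all 8 other settings tried, namely Mki67, Aurkb, Birc5, Tpx2, Plk1, Cenpe, Ube2c, Prc1, Rrm2, Tyms and Gins2. Without ATRA replicate 1 these 11 alone were called. In 9 genes (8 mitotic and Tyms) every ATRA library lay below every lower-range vehicle library, as was the case for 4.54% of all genes.

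**Figure D2:**
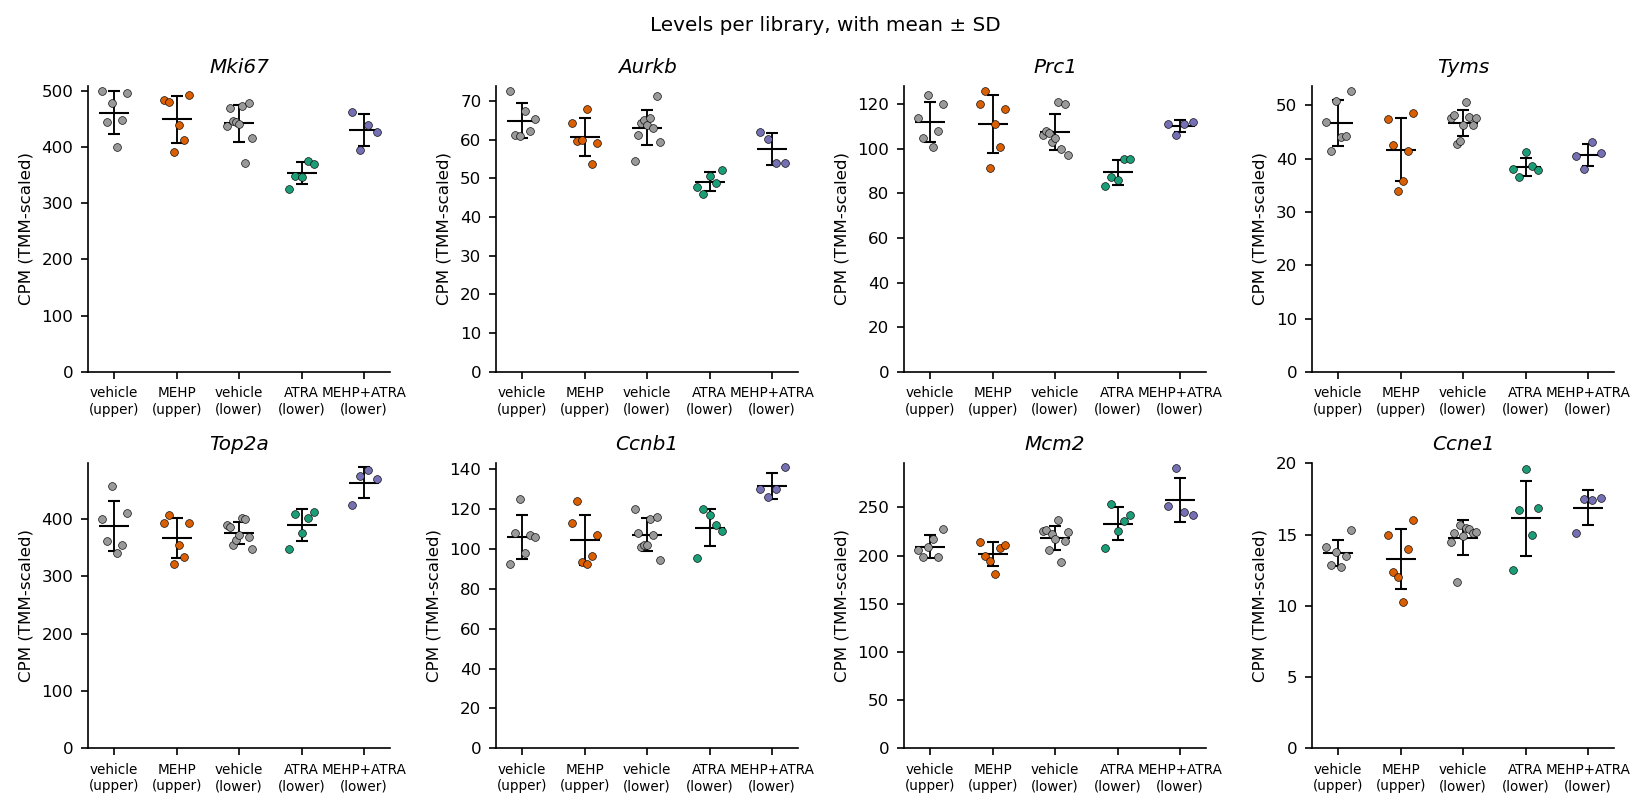
Level per library (CPM after TMM scaling, axis from 0) of 8 genes, with points for libraries and bars for mean ± SD, by group and title range. In Mki67, Aurkb, Prc1 and Tyms the ATRA group has the lowest mean, although for Tyms MEHP replicates 3 and 4 lie below every ATRA point. In Top2a and Ccnb1 all 4 MEHP + ATRA points lie above all lower-range vehicle points.

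Levels were also summed per library over each set. The summed level of the 24 mitotic genes ran from 2970 to 3330 CPM in lower-range vehicle, from 2620 to 2950 CPM with ATRA and from 3150 to 3360 CPM with MEHP + ATRA. All ATRA libraries were thus below all vehicle libraries of the range, and the MEHP + ATRA libraries above all ATRA libraries. The summed level of the 16 S phase genes ran from 1740 to 1910 CPM in lower-range vehicle, 1690 to 1880 CPM with ATRA and 1810 to 1990 CPM with MEHP + ATRA, and these groups overlapped. The ratio of the S phase to the mitotic sum was 0.563 to 0.606 in lower-range vehicle, 0.61 to 0.648 with ATRA and 0.547 to 0.632 with MEHP + ATRA. In the upper range the mitotic sum was 2960 to 3510 CPM in vehicle and 2820 to 3490 CPM with MEHP, and the S phase sum 1690 to 1980 and 1590 to 1820 CPM.

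**Figure D3:**
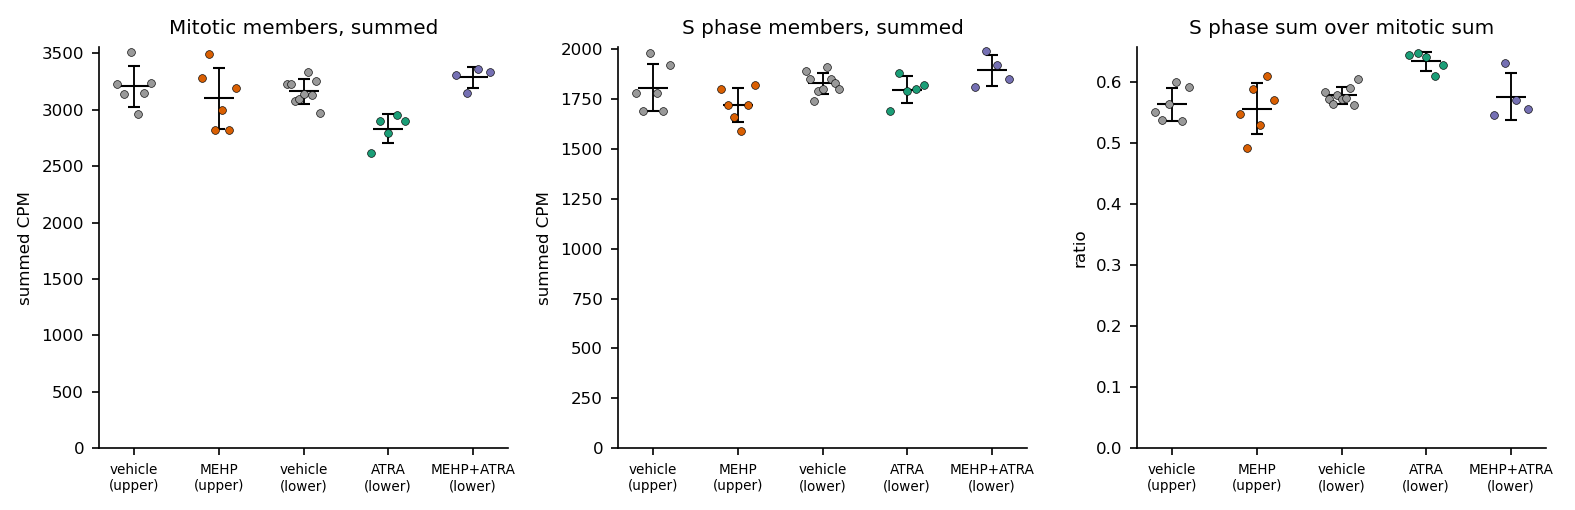
Summed level of the 24 mitotic genes and of the 16 S phase genes (CPM) and the ratio of the sums, per library, with mean ± SD by group and title range. The 5 ATRA libraries hold the lowest mitotic sums of the lower range (2620 to 2950 CPM) and the highest ratios of any group (0.61 to 0.648), apart from MEHP + ATRA and MEHP libraries that reach 0.632 and 0.61.

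Markers of other cell types moved with the treatments too, and their part in these results was not tested. The summed level of 6 interstitial progenitor markers was 6240 to 6830 CPM in lower-range vehicle, 4190 to 5090 CPM with ATRA and 4040 to 4420 CPM with MEHP + ATRA, and 4 of the 6 fell in each treatment. Of 10 Sertoli markers 7 rose and 1 (Amh) fell in each, and the Sertoli sum was 1370 to 2130 CPM in vehicle, 1730 to 2100 CPM with ATRA and 1650 to 2230 CPM with MEHP + ATRA. The sum of 10 germ cell markers was 712 to 1340, 822 to 1110 and 659 to 987 CPM in the same order, with 0 called with ATRA and 3 called lower with MEHP + ATRA. The mesonephric marker Pax2 was at 0.355 to 1.42 CPM in vehicle, 3.73 to 5.63 CPM with ATRA and 5.94 to 9.87 CPM with MEHP + ATRA. It rose by a log2 fold change of 2.57 ± 0.24 with ATRA (adjusted p = 1.23e-09) and 3.19 ± 0.25 with MEHP + ATRA (adjusted p = 8.25e-12), while the summed level of the 5 mesonephric markers was 37.7 to 57.9, 39.6 to 55.5 and 44.0 to 49.7 CPM in the same order. Of 6 endothelial markers Pecam1 rose, by 0.49 ± 0.12 with ATRA (adjusted p = 0.00249) and 0.92 ± 0.12 with both (adjusted p = 6.33e-07), and the other 5 were not called. With MEHP, 4 Sertoli markers rose (Sox9, Cst9, Aard and Nr0b1) and Amh fell, while the Sertoli sum was 1730 to 2760 CPM in upper-range vehicle and 1500 to 2250 CPM with MEHP. The endothelial markers Pecam1, Kdr and Esam also rose with MEHP, and the endothelial sum was 166 to 273 CPM in upper-range vehicle and 176 to 312 CPM with MEHP. Of the interstitial progenitor markers Col3a1 fell with MEHP, and their sum was 5730 to 6670 and 5140 to 6240 CPM. No gene of these lists had a mean of 0 in any group.

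With both compounds together the picture differed. Against lower-range vehicle 6 of the 40 genes were called, 5 higher and 1 lower, which is 15% of them against 29% of all genes (14.3% higher, 14.7% lower). Of the mitotic genes, 2 rose. Top2a lay at 348, 372 and 402 CPM in vehicle and at 424, 474, 485 and 469 CPM in MEHP + ATRA replicates 1 to 4 (0.30 ± 0.07, adjusted p = 0.00079). Ccnb1, the cyclin that starts mitosis with Cdk1, lay at 94.7, 107 and 120 CPM in vehicle and at 130, 126, 130 and 141 CPM with both compounds (0.30 ± 0.08, adjusted p = 0.00288). In both genes all 4 treated libraries were above all 9 vehicle libraries. In the helicase, 3 genes rose as well. Mcm2 lay at 193, 222 and 237 CPM in vehicle and at 251, 291, 245 and 242 CPM with both compounds, with no overlap (0.24 ± 0.06, adjusted p = 0.00184). Mcm6 lay at 181, 187 and 198 CPM and at 201, 231, 223 and 200 CPM, also with no overlap (0.17 ± 0.06, adjusted p = 0.02). Mcm3 lay at 166, 174 and 183 CPM and at 180, 207, 190 and 184 CPM, where replicate 1 fell within the vehicle range (0.13 ± 0.04, adjusted p = 0.0235). For Mcm6 the call was lost without MEHP + ATRA replicate 2 (adjusted p = 0.101) or 3 (adjusted p = 0.0746), and for Mcm3 without replicate 2 (adjusted p = 0.159). Groups did not overlap, with the treated libraries higher, in 4 of the 40 genes and in 9.14% of all genes.

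Tyms was the gene that fell with both compounds, at 40.5, 38.0, 43.2 and 41.1 CPM (−0.20 ± 0.07, adjusted p = 0.0383). Replicate 3 lay within the vehicle range of 42.7 to 50.7 CPM. The Tyms call was lost without any one of MEHP + ATRA replicates 1, 2 and 4, ATRA replicates 1, 2, 4 and 5 or vehicle replicates 1, 2, 8, 9, 12, 13 and 15 (adjusted p up to 0.156). Besides Tyms, the genes with an ATRA change of −0.26 or below stood at −0.14 ± 0.06 (Aurkb, adjusted p = 0.104), −0.04 ± 0.07 (Mki67, adjusted p = 0.722), −0.15 ± 0.08 (Rrm2, adjusted p = 0.168), −0.12 ± 0.06 (Birc5, adjusted p = 0.144), −0.15 ± 0.07 (Gins2, adjusted p = 0.0902) and 0.03 ± 0.07 (Prc1, adjusted p = 0.781) with both. The median log2 fold change was 0.04 for the mitotic and 0.01 for the S phase genes, beside −0.01 over all genes. Limma-voom called 13 of the 40, a count for which the share of all genes called by that tool is not given here.

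Set directly against ATRA alone, 4 mitotic genes were higher with both compounds and none lower. These were Tpx2 (0.29 ± 0.07, adjusted p = 0.0171), Ccnb2 (0.30 ± 0.08, adjusted p = 0.0216), Mki67 (0.29 ± 0.07, adjusted p = 0.0257) and Prc1 (0.30 ± 0.08, adjusted p = 0.0261), against 1.62% of all genes called higher (1.38% lower, 3% in either direction). Ccnb2, the second mitotic B-type cyclin, lay at 75.2, 85.5, 79.6, 80.3 and 81.7 CPM with ATRA and at 104, 92.8, 97.6 and 102 CPM with both. Tpx2 stood at 153, 141, 155 and 156 CPM and Prc1 at 111, 106, 111 and 112 CPM with both. In all 4 genes every MEHP + ATRA library was above every ATRA library, as it was in 11 of the 24 mitotic genes, 0 of the 16 S phase genes and 3.6% of all genes. The median difference was 0.23 for the mitotic and 0.09 for the S phase genes, beside −0.01 over all genes, and 22 of the 40 had an unadjusted p under 0.05, as did 13.3% of all genes. This comparison and the one of ATRA with vehicle share the ATRA libraries. The Tpx2 call was lost without MEHP + ATRA replicate 1, 3 or 4 (adjusted p up to 0.0591), and that of Ccnb2 without ATRA replicate 1 or MEHP + ATRA replicate 1 or 4 (up to 0.0865). The Mki67 call was lost without ATRA replicate 1 or MEHP + ATRA replicate 1, 3 or 4 (up to 0.111), and that of Prc1 without ATRA replicate 1, 2 or 3 or MEHP + ATRA replicate 1, 3 or 4 (up to 0.0744). The number called was 0 without MEHP + ATRA replicate 1 or 4, 1 without ATRA replicate 1 or MEHP + ATRA replicate 3, 8 without vehicle replicate 6 and 10 without MEHP + ATRA replicate 2. It was 14 with DESeq2 and 15 with limma-voom or with lower-range libraries alone. The shares of all genes called in those other fits are not given here, so these counts are not set against them.

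Against MEHP alone, 4 genes were higher with both compounds and none lower, against 4.06% of all genes called higher (4.23% lower). They were Top2a (0.38 ± 0.09, adjusted p = 0.00854), Mcm2 (0.29 ± 0.08, adjusted p = 0.0172), Mcm6 (0.26 ± 0.08, adjusted p = 0.0394) and Mcm3 (0.19 ± 0.06, adjusted p = 0.043). These groups lie in different title ranges and meet only through vehicle, so no direct overlap is given. Top2a held in every fit without 1 library, and Mcm2 was lost without MEHP + ATRA replicate 2 (adjusted p = 0.0724). The Mcm3 call was lost on leaving out any one of MEHP replicates 1, 2 and 5, MEHP + ATRA replicates 2 and 3 or vehicle replicates 3, 5, 6, 7, 8, 10, 14 and 15 (adjusted p up to 0.156). For Mcm6 the same was true of MEHP replicates 2, 3 and 4, MEHP + ATRA replicates 2 and 3 and vehicle replicates 2, 5, 6, 7, 8, 14 and 15 (adjusted p up to 0.119). The count fell to 1 without MEHP + ATRA replicate 2, and to 2 without MEHP + ATRA replicate 3 or any one of vehicle replicates 5, 6, 7, 8, 14 and 15.

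Whether the 2 compounds added up was tested by the interaction, the change with both minus the sum of the separate changes on the log2 scale. None of the 40 genes was called (0.0311% of all genes were), and DESeq2 and limma-voom also called 0. The smallest adjusted p was 0.422, for Aurkb. Its separate changes of −0.09 with MEHP and −0.36 with ATRA add, before rounding, to −0.46, the change observed with both was −0.14, and the difference was 0.32 ± 0.09 (95% interval 0.13 to 0.51). For Mki67 the sum was −0.36 and the observed change −0.04 (interaction 0.32 ± 0.10, adjusted p = 0.495). Top2a had a sum of −0.03 and an observed change of 0.30 (0.33 ± 0.10, adjusted p = 0.495). The estimate was above 0 in all 40 genes, from 0.05 (Mcm7) to 0.34 (Ube2c), while 48.5% of all genes were above 0. Its median was 0.27 for the mitotic and 0.15 for the S phase genes, beside 0 over all genes, and 23 of the 40 had an unadjusted p under 0.05, as did 4.28% of all genes. The 40 estimates rest on the same 30 libraries and are not independent of each other. They also rest on the range term, because MEHP alone was measured in the upper range and the combination in the lower.

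**Figure D4:**
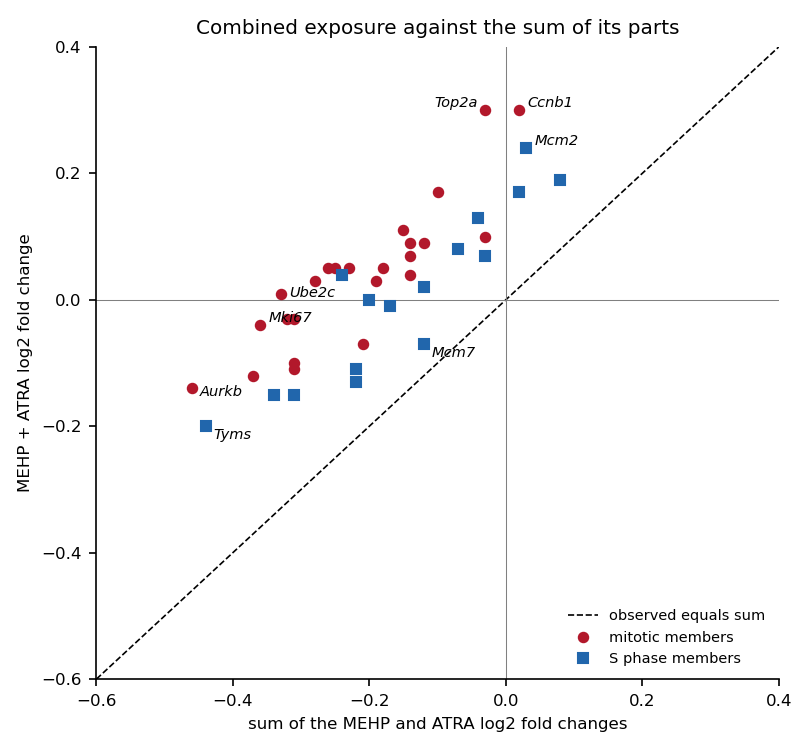
Observed log2 fold change with MEHP + ATRA (vertical) against the sum of the separate MEHP and ATRA changes (horizontal) for each of the 40 genes, with the line where both are equal. All 40 points lie above the line, by 0.05 (Mcm7) to 0.34 (Ube2c), and no single interaction passed the test.

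Other genes of the cycle were counted in 9 lists of 137 genes, all tested. Their counts stand beside the shares of all genes called, which were 4.72% with MEHP, 18.1% with ATRA (9.03% lower, 9.06% higher) and 29% with both compounds (14.7% lower, 14.3% higher). Over the 137 genes these shares were 2.19%, 36.5% and 29.2%. Of 31 kinetochore, spindle and cytokinesis genes outside the 40, 17 fell (54.8%) and 0 rose with ATRA (median −0.21, beside 0 over all genes). The motor gene Kifc1 (−0.33 ± 0.05, adjusted p = 9.25e-06), the cytokinesis gene Racgap1 (−0.30 ± 0.05, adjusted p = 9.29e-06) and the spindle gene Spag5 (−0.25 ± 0.04, adjusted p = 8.67e-05) led them. With both compounds 5 of the 31 fell and 2 rose (22.6% called, below the share over all genes), the cytokinesis gene Ect2 by 0.45 ± 0.08 (adjusted p = 3.18e-05) among the latter. Against ATRA alone 6 were higher (19.4%, beside 1.62% of all genes). Of 31 replication fork and origin genes, 7 fell and 3 rose with ATRA (32.3% called), and 2 fell and 5 rose with both (22.6%, below the share over all genes). The helicase partner Cdc45 rose in each, by 0.38 ± 0.06 (adjusted p = 1.99e-05) and 0.47 ± 0.06 (adjusted p = 1.01e-06), and so did the origin recognition gene Orc1, by 0.32 ± 0.08 (adjusted p = 0.00517) and 0.58 ± 0.09 (adjusted p = 3.02e-06). The thymidine kinase gene Tk1 fell in each, by 0.24 ± 0.05 (adjusted p = 0.00198) and 0.23 ± 0.06 (adjusted p = 0.00276).

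Calls among the regulators upstream went in both directions. Foxm1, which drives mitotic genes, fell with ATRA (−0.36 ± 0.07, adjusted p = 0.000666) and with both compounds (−0.26 ± 0.08, adjusted p = 0.0156). In the same list of 8 DREAM and FoxM1 genes Rbbp4 rose in each (0.16 ± 0.05, adjusted p = 0.0291, and 0.30 ± 0.06, adjusted p = 0.000144), and the other 6 did not pass. Of this list 25% was called with ATRA and 25% with both, beside 18.1% and 29% of all genes. Of 12 retinoblastoma family and E2F genes, 4 fell and 1 rose with ATRA (41.7% called). The repressors E2f6 (−0.33 ± 0.05, adjusted p = 7.97e-06) and E2f7 (−0.33 ± 0.08, adjusted p = 0.00165) were among those that fell, and with both compounds 4 fell and 2 rose (50% called). With MEHP, 3 of the 137 genes were called, all lower, a share below that of all genes. They were the D-type cyclin gene Ccnd2 (−0.35 ± 0.09, adjusted p = 0.0216), E2f6 (−0.18 ± 0.05, adjusted p = 0.0324) and E2f7 (−0.26 ± 0.08, adjusted p = 0.0427). Ccnd2 also fell with ATRA (−0.40 ± 0.09, adjusted p = 0.00138) and with both (−0.54 ± 0.10, adjusted p = 6.16e-05), and in this list of 8 D cyclins and G1 kinases Cdk2 rose in each of those (0.18 ± 0.04, adjusted p = 0.00371, and 0.24 ± 0.05, adjusted p = 0.000158). Of the 8 genes 25% were called with ATRA and 37.5% with both, beside 18.1% and 29% of all genes.

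The 7 inhibitors of cyclin-dependent kinases hold cells in G1. Of these, 2 fell and 1 rose with ATRA (42.9% called, beside 18.1% of all genes). With both compounds 1 fell and 1 rose (28.6%, near the 29% of all genes), and none was called with MEHP. Cdkn1a (p21) fell with ATRA from 25.2 ± 4.6 CPM (SD, n = 9) to 19.0 ± 1.7 CPM (n = 5; log2 fold change −0.41 ± 0.13, edgeR adjusted p = 0.0219) and stood at 24.0 ± 2.3 CPM with both compounds. Cdkn2b (p15) had low levels, 3.33 ± 0.93 CPM in vehicle, and fell with ATRA (−0.63 ± 0.20, adjusted p = 0.0265) and with both (−0.78 ± 0.22, adjusted p = 0.0071). Cdkn2a (p16 and p19ARF) rose with ATRA (0.70 ± 0.25, adjusted p = 0.0498), with 6.55 to 17.9 CPM in vehicle and 13.3 to 23.1 CPM with ATRA. Cdkn2d (p19INK4d) rose with both (0.23 ± 0.05, adjusted p = 0.00134). Cdkn1b (p27), Cdkn1c (p57) and Cdkn2c (p18) were not called in any of the 3 comparisons with vehicle, the nearest being Cdkn2c with ATRA (−0.28 ± 0.10, adjusted p = 0.0558). The antiproliferative gene Btg2 fell by 0.73 ± 0.08 with ATRA (adjusted p = 9.26e-09) and by 0.88 ± 0.08 with both (adjusted p = 5.69e-10), while Tob1 of the same list of 5 rose with both (0.23 ± 0.08, adjusted p = 0.0309) and Btg1, Btg3 and Tob2 were not called. Of 15 condensin and cohesin genes 3 fell and 1 rose with ATRA (26.7% called), the condensin gene Ncaph by −0.25 ± 0.05 (adjusted p = 0.000266), and with both 1 fell and 3 rose (26.7%, near the share over all genes). Of 20 APC/C and checkpoint genes, 3 fell and 3 rose with ATRA (30% called), and 2 fell and 5 rose with both (35%, near the share over all genes). The checkpoint kinase gene Chek2 fell in each (−0.31 ± 0.06, adjusted p = 0.000152, and −0.19 ± 0.06, adjusted p = 0.0167). No gene of the 9 lists was called for the interaction.

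**Figure D5:**
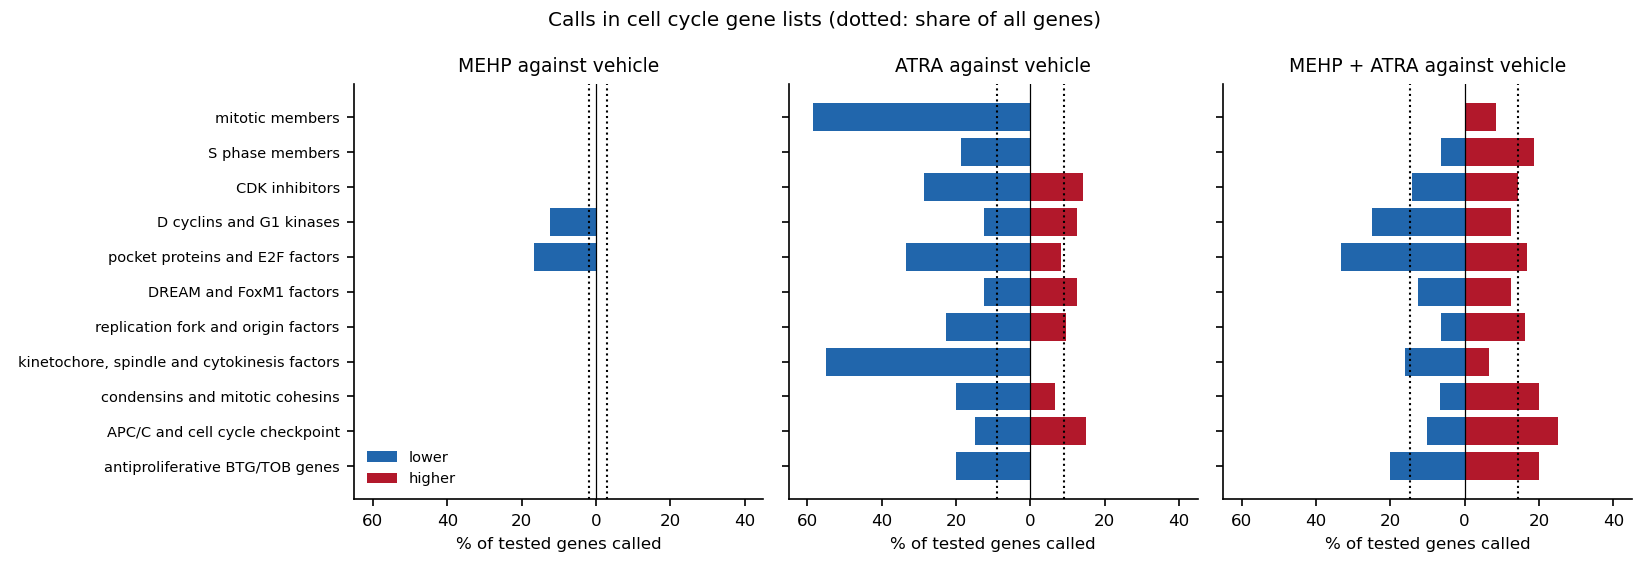
Share of tested genes called lower (left of 0) or higher (right of 0) in the 2 sets and the 9 further lists, for each treatment against vehicle, with dotted lines at the share of all genes. With ATRA the mitotic genes (58.3%) and the kinetochore, spindle and cytokinesis list (17 of 31) have the longest lower bars and no higher bar.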

How the data were processed

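Each library has a deposited file of unnormalised counts for every gene, laid out as featureCounts output, as the file headers show. The submitters' processing notes name STAR 2.5.2b, Subread 1.5.2 with featureCounts, Trimmomatic 0.36, bcl2fastq 2.20 and DESeq2 as the authors' tools. Genome build, annotation and strand setting were not given in the sources used here. Of the gene identifiers, 99.47% matched GENCODE M21 (GRCm38), 91.44% with the same coordinates, as did 38 of the 40 genes. Groups were taken from the treatment label.

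The counts went into edgeR 4.0.16 (R 4.3.3). filterByExpr (minimum count 10) kept 19323 genes, and TMM factors ran from 0.975 to 1.023. One quasi-likelihood model over 30 libraries held the treatments and the title range (below or above 500), with 25 residual degrees of freedom and a common biological coefficient of variation of 12.7%. F tests were two-sided with Benjamini-Hochberg adjustment over all genes for each of 7 contrasts, at 0.05, and standard errors were derived from F. Every adjusted p-value is edgeR's unless another tool is named. Alternatives used DESeq2 1.42.0, limma-voom (limma 3.58.1) and the settings listed in the closing section. The fit was tested on simulated counts with known changes. Of changes of 0.25 on the log2 scale it recovered 32.8% (MEHP), 28.4% (ATRA) and 19.4% (MEHP + ATRA). Of changes of 0.5 it recovered 89.6%, 89.6% and 86.6% in the same order. Each simulation changed 67 genes by 0.25, 67 by 0.5 and 66 by 1, out of 19323. Many more genes were called in the data (3494 with ATRA), which sets another adjusted cut-off, so these shares are only a rough guide. A gene that was not called may still have changed, within limits set by its own standard error.

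The 40 genes, the further lists and the rules were chosen with earlier results of these data known. All 40 genes are named whatever their result, and of the other lists up to 3 called genes with the smallest p per comparison and all 7 inhibitors. Cell type markers are given as sums, and the single markers named were chosen after their values were seen. The first numbers in the titles form 9 sets of libraries within a range that could be paired, but the labels do not say so. Deviations correlated above 0.1 in 6 of these 9 and not in all, so the main fit used no block. Its p-values therefore take no account of a possible pairing, for which all 9 sets gave a hint by correlating best with their own number. In the upper range, which holds MEHP, the correlations were 0.47, 0.61, 0.35 and 0.65. Motifs were searched in RefSeq promoter windows.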

Additional observations from a re-analysis of the deposited data

Results flagged for a closer look

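Within the 200 sets formed by a gene and a group of 1 title range, 10 held a library that stood far from the others of its group, and chance alone would give about 1 in 20, or 10. With MEHP, Bub1 was 82.7 CPM in replicate 2 and 60.5 to 67.0 CPM in the others, and Mcm7 was 204 CPM in replicate 4 and at least 235 CPM in the others. With MEHP + ATRA, Ccne1 was 15.1 CPM in replicate 1 and 17.4 to 17.6 CPM in the others, and Prc1 was 106 CPM in replicate 2 and 111 to 112 CPM in the others. In lower-range vehicle, replicate 13 was high for Cenpa (128 CPM, others 113 to 119) and for Ube2c (104 CPM, others 78.7 to 90.3). In the same group Rrm1 was 204 CPM in replicate 12 (others 166 to 184) and Ccne1 was 11.7 CPM in replicate 5 (others 14.5 to 15.7). In upper-range vehicle, replicate 6 was high for Ccne2 (19.4 CPM, others 10.8 to 12.7) and for Cenpe (159 CPM, others 136 to 144).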

How the results depend on the processing

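No call changed direction under any alternative. For MEHP the count of genes called was 0, and became 2 without the range term and 1 with a replicate block on the first title number within each range (Tyms, −0.17, adjusted p = 0.0414). For ATRA it was 17 and stayed between 13 and 18 under the other settings, with 15 under either replicate block, and ran from 11 to 17 when 1 library was left out. For MEHP + ATRA against vehicle it was 6, became 13 with limma-voom, and ran from 5 to 7 with 1 library left out. For MEHP + ATRA against ATRA it was 4, and became 14 with DESeq2, 15 with limma-voom, 15 with libraries of 1 range alone and 10 with the replicate block over all libraries, with 0 to 10 on leaving out 1 library. For MEHP + ATRA against MEHP it was 4, and became 2 with no filter on low counts and 7 without the range term, with 1 to 5 on leaving out 1 library. The causes were not tested, and the shares of all genes called under these settings are not given here. For the interaction and the range difference it was 0 in all fits, with 1 library left out or another setting. Every one of the 9 sets formed by a first number and a range correlated best with its own number across groups (0.08 to 0.65), a hint of pairing that comes from the data.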
